A study of Mus musculus with 24 samples.

Results

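The 6 genes that carry the C/EBP name (Cebpa, Cebpb, Cebpd, Cebpe, Cebpg and Cebpz), Spi1 and Gfi1 were followed in mouse leukaemia cells in which the histone methyltransferase DOT1L or 1 of 3 of its partner proteins had been targeted with Cas9. They were picked by name as myeloid transcription factors and not by a rule on their values, though with earlier results of these data known. All 8 are present among the 43629 genes of the count table. The cells are a cultured line of acute myeloid leukaemia that carries the MLL-AF9 fusion oncogene and expresses Cas9, so the control cells carry both as well. The 8 groups of 3 libraries are a non-targeting guide (the control), a DOT1L knockout, and MLLT10, MLLT1 (also named ENL) and MLLT6 (also named AF17) knockouts with guide 1 or guide 2 each. Lentivirus (MOI 0.3) carried the guides in, puromycin at 2 ug/ml acted from 48 hours on over 72 hours, and the day 9 cells gave the RNA. The labels do not say whether the cells were clones or a mixed population, and DOT1L and the control have 1 group each, so an effect particular to 1 guide cannot be told apart from that of the knockout there.

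C/EBP proteins are leucine zipper (bZIP) transcription factors that bind DNA as pairs. C/EBPα drives the step from progenitor to granulocyte and monocyte precursors, C/EBPε is required for the late, granule-forming steps of neutrophils, and C/EBPβ and C/EBPδ are known for inflammatory and stress-induced granulocyte production. C/EBPγ lacks the activation domains of the others and pairs with them, and the protein of Cebpz, in spite of the name, is not a bZIP factor but a CCAAT-box binding protein that is also linked to ribosome assembly. PU.1, the product of Spi1, is an ETS factor needed for both monocytes and granulocytes, and Gfi1 is a zinc finger repressor that favours neutrophils over monocytes and limits stem cell genes. DOT1L methylates a lysine residue of histone H3 over transcribed genes, and MLL fusions are known to draw it to their targets.

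Library totals ran from 2403044 to 7415397 counts. All 8 genes passed the filter on low counts, and the counts behind a single library value ran from 23 to 114 for Cebpz, from 68 to 849 for Cebpb and from 101 to 3419 for the other 6 genes. Levels are given as CPM (counts per 1000000 of a library, after TMM scaling). Changes are log2 fold changes with a standard error (SE) from edgeR's quasi-likelihood test over 10578 genes, and a gene is called where its Benjamini-Hochberg adjusted p is under 0.05. Nothing in the labels says that replicates were grown separately, so the p-values rest on a spread that may be technical. The 7 markers of the labelled cells (Ptprc, Itgam, Spi1, Cd33, Kit, Cd34 and Mpo) all had counts in every group, and no T cell marker of 5 had a count in the control or in the DOT1L knockout. The 5 B cell markers summed to at most 0.313 CPM in the control and 0.711 CPM in the DOT1L knockout. The 6 stroma and epithelium markers summed to 347 to 456 CPM and 178 to 208 CPM there. Of the 2 tested, Col1a1 and Pecam1, 1 was called higher and 1 lower in the DOT1L knockout. The libraries MLLT1 guide 1 replicate 1 and MLLT6 guide 1 replicate 3, which an earlier analysis of these data found to stand apart, are in every result, and values without both are given where leaving them out changes a call among the 8 genes. All comparisons with the control use the same 3 control libraries, and those with the DOT1L knockout the same 3 DOT1L libraries, so they are not independent of each other. Among the targeted genes, Dot1l fell by 0.71 ± 0.13 on the log2 scale (edgeR adjusted p = 0.000189), while Mllt10 (-0.76 ± 0.21), Mllt1 (0.62 ± 0.22) and Mllt6 (-0.90 ± 0.19) were not called (edgeR adjusted p = 0.139, 0.148 and 0.496). A Cas9 cut need not lower the mRNA of its gene, so these levels do not check the labels closely.

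The stretch in front of the gene is shown for 3 members, because 2 of them (Cebpa and Cebpb) were higher in the DOT1L knockout and 1 (Cebpg) was not called. Each is 240 bases long, ends 11 bases before the RefSeq start site and is written 5′ to 3′ along the gene (RefSeq, build GRCm38.p6). They lie at chr7:35119043-35119282 (plus strand, Cebpa), chr2:167688665-167688904 (plus strand, Cebpb) and chr7:35056577-35056816 (minus strand, Cebpg). Capitals mark the core of a C/EBP site (TTGCG) or a CCAAT box (CCAAT) on either strand.
Cebpa: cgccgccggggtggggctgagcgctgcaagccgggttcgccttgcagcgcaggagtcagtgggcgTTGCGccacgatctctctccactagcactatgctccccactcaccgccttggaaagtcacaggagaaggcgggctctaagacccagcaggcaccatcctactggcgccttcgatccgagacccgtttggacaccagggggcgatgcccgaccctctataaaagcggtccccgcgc
Cebpb: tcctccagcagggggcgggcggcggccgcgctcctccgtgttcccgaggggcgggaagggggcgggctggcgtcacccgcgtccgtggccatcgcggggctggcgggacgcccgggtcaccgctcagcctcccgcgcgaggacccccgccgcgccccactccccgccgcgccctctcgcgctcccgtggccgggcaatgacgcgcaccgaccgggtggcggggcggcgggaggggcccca
Cebpg: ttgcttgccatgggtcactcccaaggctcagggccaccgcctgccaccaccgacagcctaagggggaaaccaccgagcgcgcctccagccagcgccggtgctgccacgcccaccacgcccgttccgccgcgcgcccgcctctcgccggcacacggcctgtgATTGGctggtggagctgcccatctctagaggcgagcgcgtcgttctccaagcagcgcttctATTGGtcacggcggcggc
G and C made up 65.4% of the Cebpa window, 82.1% of the Cebpb window and 70.0% of the Cebpg window, against a median of 52.1% over all 32851 windows of this kind. The Cebpa window holds 1 C/EBP core, from -185 to -181, and 14% of all windows hold one. The Cebpg window holds 2 CCAAT boxes, read as ATTGG from -89 to -85 and from -28 to -24, and 33% of all windows hold one. The PU.1 letters GAGGAA (in 22.3% of all windows) and the GFI1 letters AAATCNC (in 10.0%) are in none of the 3, and the Cebpb window holds none of the 4 motifs. The motifs do not overlap each other in these windows, and their letters were chosen with the windows in view.

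In the DOT1L knockout, 5 of the 8 genes were higher than in the control and none was lower: Cebpa, Cebpb, Cebpd, Cebpe and Spi1. Of all genes tested, 11.2% were called higher and 10.7% lower in this comparison. The median log2 fold change of the 8 genes was 1.09, against 0.01 for all genes. Gfi1, Cebpg and Cebpz were not called.

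Cebpd (ENSMUSG00000071637, mm10 chromosome 16, 15887286 to 15891031, plus strand, a gene with a single exon) had the largest log2 fold change of the 8. Its level was 454.0, 657 and 609 CPM in DOT1L knockout replicates 1, 2 and 3, and 88.2, 134 and 128 CPM in the control. The lowest DOT1L library was above each of the other 21 libraries, whose highest value was 223 CPM in MLLT1 guide 1 replicate 2. For how many of all tested genes such a gap holds was not worked out, here or for the separations between groups given below. Cebpd rose 4.90-fold, by 2.29 ± 0.26 (SE) on the log2 scale (edgeR adjusted p = 4.9e-07). Spidr, a gene on the opposite strand, shares 562 exon bases with Cebpd, and differed by -0.56 ± 0.29 on the log2 scale (edgeR adjusted p = 0.187).

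Cebpe (ENSMUSG00000052435, chromosome 14, 54710360 to 54712174, minus strand) had levels of 124, 135 and 148 CPM after DOT1L loss, against 65.95, 55.7 and 39.3 CPM in control cells. Every DOT1L library was above every control library, and 1 of the other 21 libraries, MLLT1 guide 1 replicate 1 at 134 CPM, was above the lowest of them. The share of all tested genes whose DOT1L and control libraries do not overlap was not worked out. The rise was 2.54-fold, 1.34 ± 0.25 on the log2 scale (edgeR adjusted p = 0.0003).

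Cebpa (ENSMUSG00000034957, chromosome 7, 35119293 to 35121928, plus strand, a single exon) had levels of 136, 158 and 177 CPM after DOT1L loss, against 115, 84.4 and 63.8 CPM in control cells. The groups did not overlap, a trait whose share over all genes was again not worked out. Of the 21 other libraries, 5 were above the lowest DOT1L library. The rise was the smallest of the 5, 1.79-fold or 0.84 ± 0.23 on the log2 scale (edgeR adjusted p = 0.00887). Without control replicate 3, the lowest of the 24 libraries for this gene, it was 0.66 (edgeR adjusted p = 0.0673).

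Cebpb (ENSMUSG00000056501, chromosome 2, 167688915 to 167690418, plus strand, a single exon) had levels of 57.6, 101 and 151 CPM after DOT1L loss, against 29.3, 21.3 and 64.2 CPM in control cells. The groups overlapped: DOT1L replicate 1 was below control replicate 3. Cebpb was highest in replicate 3 in all 8 groups, and at equal replicate number each DOT1L library was above the control library. What the replicate numbers stand for is not given. On the log2 scale the difference was 1.45 ± 0.43 (edgeR adjusted p = 0.0161), and it lost its call without control replicate 1 (1.28, adjusted p = 0.069), without control replicate 2 (1.14, adjusted p = 0.108) or without DOT1L replicate 3 (1.06, adjusted p = 0.124). Without control replicate 3 it was larger, 2.05, and called. Tmem189, on the opposite strand, shares 312 exon bases with Cebpb, and differed by 0.35 ± 0.17 on the log2 scale (edgeR adjusted p = 0.151).

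Spi1 (ENSMUSG00000002111, chromosome 2, 91082390 to 91115756, plus strand) had levels of 348, 342 and 300.4 CPM after DOT1L loss, against 159.9, 124 and 98.0 CPM in control cells. As for Cebpd, the lowest DOT1L library was above each of the 21 others, which reached 227 CPM in MLLT1 guide 1 replicate 1. The rise was 2.59-fold, 1.38 ± 0.23 on the log2 scale (edgeR adjusted p = 9.77e-05).

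Gfi1 (ENSMUSG00000029275, chromosome 5, 107716657 to 107726036, minus strand) had levels of 275, 283 and 265 CPM after DOT1L loss, against 168, 183 and 241 CPM in control cells. The DOT1L libraries were again the highest 3 of the 24. That rank rests on the TMM scaling. The TMM factors were 0.88, 0.86 and 0.87 in DOT1L replicates 1, 2 and 3 and 1.07 in control replicate 3. The difference from the control, 0.48 ± 0.20 on the log2 scale, did not pass the test (edgeR adjusted p = 0.102). Its interval of 2 SE on either side ran from 0.07 to 0.88. A430072P03Rik, on the opposite strand, shares 101 exon bases with Gfi1, at 1.31 ± 0.57 on the log2 scale (edgeR adjusted p = 0.106). Without both libraries that stood apart, neither of which is in the groups compared, the value was 0.48 with an adjusted p of 0.0473 from edgeR.

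The other pair of C/EBP-named genes was not called. Cebpg (ENSMUSG00000056216, chromosome 7, 35046422 to 35056573, minus strand) had levels of 84.7, 111 and 115 CPM after DOT1L loss, against 68.0, 74.8 and 107 CPM in control cells, a log2 difference of 0.32 ± 0.34 (edgeR adjusted p = 0.571). Cebpz (ENSMUSG00000024081, chromosome 17, 78919006 to 78937066, minus strand) stood at 8.92, 15.6 and 11.2 CPM against 13.6, 12.2 and 14 CPM, a log2 difference of -0.15 ± 0.30 (edgeR adjusted p = 0.778). Both overlapped the control, and the intervals of 2 SE ran from -0.37 to 1.01 for Cebpg and from -0.75 to 0.44 for Cebpz.

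**Figure D1:**
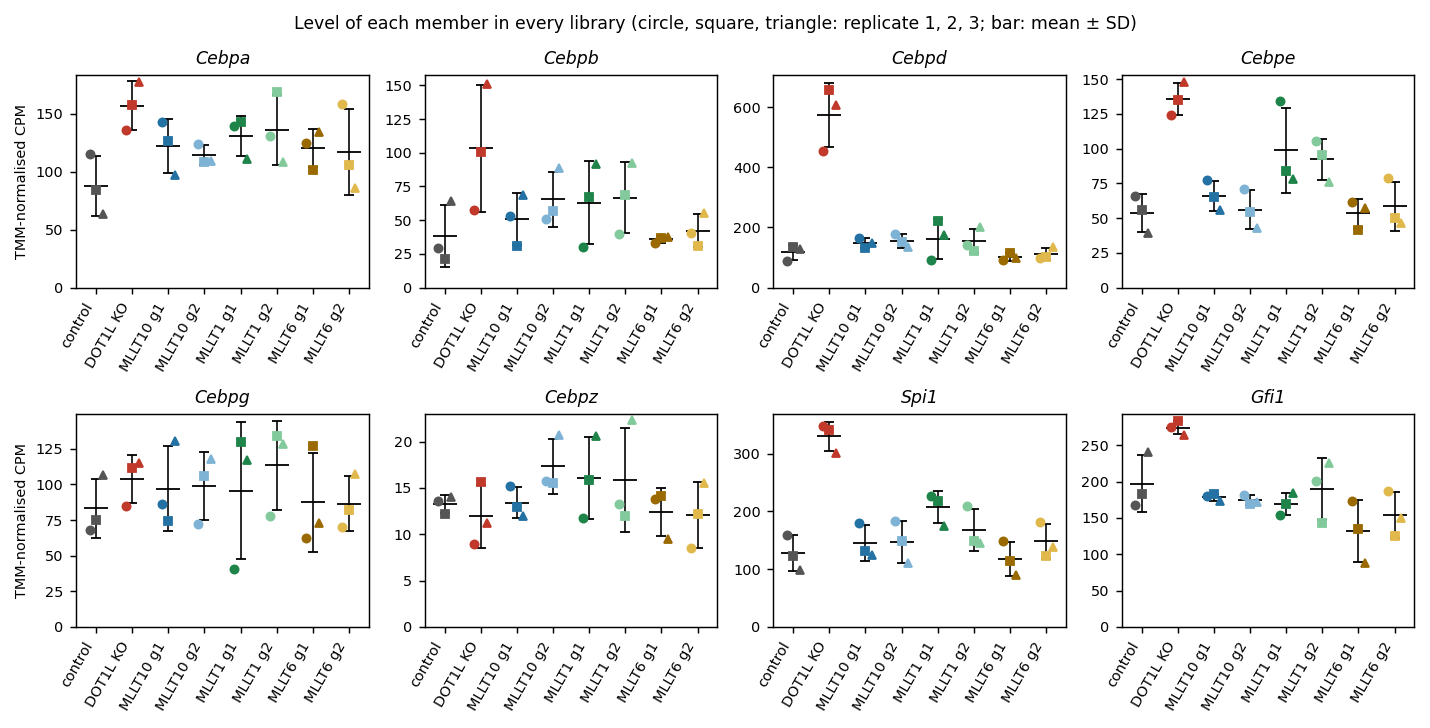
Level of the 8 genes (TMM-normalised CPM, linear axes from 0) in the 24 libraries by group, with circle, square and triangle for replicates 1, 2 and 3 and bars for mean ± SD (n = 3). Among the 8, Cebpd, Spi1 and Gfi1 are the genes whose 3 DOT1L knockout libraries lie above the other 21 after TMM scaling. The share of all tested genes that do so was not worked out.

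Markers of neutrophils and of other blood cells moved with these genes. The summed level of S100a8, S100a9, Camp, Ngp, Ltf and Lcn2 was 279.9 to 382 CPM in the control and 91115 to 104866 CPM in the DOT1L knockout, and all 6 were called higher. The monocyte and macrophage list of 7 genes summed to 4059 to 6359 CPM in the control and 3353 to 4200.0 CPM in the DOT1L knockout, and of its 6 tested genes 2 were called higher and 1 lower. The mast cell and basophil list of 6 genes summed to 119 to 152 CPM in the control and 32.8 to 47.2 CPM in the DOT1L knockout, with Fcer1a and Cma1 at 0 in both, and 3 of its 4 tested genes (Cpa3, Gata2 and Mcpt8) were called lower. The erythroid and megakaryocyte list of 6 genes summed to 80.1 to 102 CPM in the control and 12.3 to 17.8 CPM after DOT1L loss, with 1 of its 3 tested genes called higher and 2 lower. In bulk RNA, a shift in the share of cells at a given stage and a shift in RNA per cell cannot be told apart, and the part of either in the rise of the C/EBP genes and Spi1 was not tested.

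The MLLT10 knockout had no called member. The share called over all genes was 0.473% there (0.236% higher), and 1 member, Cebpa, had an unadjusted p under 0.05. Cebpa measured 143, 126 and 96.9 CPM under guide 1 and 124, 109 and 109 CPM under guide 2, against 115, 84.4 and 63.8 CPM in control cells, which the guides overlap. It differed by 0.43 ± 0.20 on the log2 scale (edgeR adjusted p = 0.495). Of the 8 estimates, 7 were above 0, and the median was 0.22, against 0.00 for all genes. The largest estimate was that of Cebpb, 0.59 ± 0.38 (edgeR adjusted p = 0.655). Cebpd was at 0.37 ± 0.22, Spi1 at 0.21 ± 0.20, Cebpe at 0.19 ± 0.22 and Gfi1 at -0.16 ± 0.18, with edgeR adjusted p between 0.611 and 0.835. DESeq2 called none of the 8 either. Replicate numbers paired these libraries with the control, and the block on them raised the genes called over the table from 50 to 79 and called no member.

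In the MLLT1 knockout, 1 of the 8 genes was called, Cebpe, which was higher. Over all genes, 0.974% were called higher, 1.61% lower and 2.58% in either direction. Cebpe measured 134, 83.9 and 78.2 CPM under guide 1 and 105, 95.3 and 76.1 CPM under guide 2, against 65.95, 55.7 and 39.3 CPM in control cells, so all 6 knockout libraries were above all 3 control libraries. The share of all tested genes that separate in this way was not worked out. On the log2 scale the difference of Cebpe was 0.83 ± 0.22 (edgeR adjusted p = 0.0444). That call rests on single libraries: it was lost without control replicate 2 (0.86, adjusted p = 0.181) or 3 (0.66, 0.296), and without MLLT1 guide 1 replicate 1 (0.69, 0.0843) or 2 (0.89, 0.0519). It was also lost without guide 2 replicate 1 (0.79, adjusted p = 0.0901 by edgeR) or 2 (0.82, 0.0867), and with both libraries that stood apart left out it was 0.69 (0.0811).

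Spi1 in the MLLT1 knockout measured 227, 219 and 176 CPM under guide 1 and 210.1, 148 and 146 CPM under guide 2, against 159.9, 124 and 98.0 CPM in control cells. Guide 1 lay above the control and guide 2 overlapped it. At equal replicate number, each library of either guide was above the control library. Spi1 differed by 0.55 ± 0.20 on the log2 scale (edgeR adjusted p = 0.165). With a block on the replicate number it was 0.57 and called (edgeR adjusted p = 0.00819), but the numbers paired guide 2 and not guide 1 with the control. Cebpa was at 0.61 ± 0.20 (edgeR adjusted p = 0.129), and without control replicate 1 at 0.84 (adjusted p = 0.0349). Cebpb was at 0.77 ± 0.38 (edgeR adjusted p = 0.338), Cebpd at 0.44 ± 0.22 (0.348) and Gfi1 at -0.14 ± 0.18 (0.768). With no filter on low counts, Cebpa (0.62, edgeR adjusted p = 0.0321) and Cebpb (0.78, 0.00721) were called beside Cebpe.

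No gene of the table was called in the MLLT6 knockout (0.0% of 10578 by edgeR, with 727 at an unadjusted p under 0.05), so the absence of called members there is that of all genes. Among the 8, Gfi1 was the lowest estimate. It measured 173, 134 and 87.9 CPM under guide 1 and 188, 125 and 150.1 CPM under guide 2, against 168, 183 and 241 CPM in control cells, with overlap. It differed by -0.47 ± 0.17 on the log2 scale (edgeR adjusted p = 0.699), with an interval of 2 SE from -0.82 to -0.12. Cebpa was at 0.44 ± 0.20 (edgeR adjusted p = 0.699). The other 6 estimates lay between -0.13 and 0.06, and DESeq2 called none of the 8.

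Set against the control 1 at a time, no guide gave a called member, while 0.17% and 0.303% of all genes were called for MLLT10 guides 1 and 2, 1.25% and 1.22% for MLLT1 guides 1 and 2, and 0.0% for either MLLT6 guide. The number of members with an unadjusted p under 0.05 was 1 and 0 for the MLLT10 guides, 3 and 2 for the MLLT1 guides and 1 and 0 for the MLLT6 guides. Both MLLT1 guides had Cebpe at close values, 0.88 ± 0.25 for guide 1 and 0.78 ± 0.25 for guide 2 (edgeR adjusted p = 0.0925 and 0.149). Replicate numbers paired guide 2 and not guide 1 with the control. With a block on them, fitted over all libraries, Cebpe was called for both guides (0.86 and 0.79, edgeR adjusted p = 0.0139 and 0.0239). Their Spi1 values were 0.70 ± 0.23 and 0.40 ± 0.23 (edgeR adjusted p = 0.156 and 0.522), and the test of guide 2 against guide 1 gave -0.30 ± 0.23 (edgeR adjusted p = 0.9997). In the 3 tests of guide 2 against guide 1, no member and no other gene was called (0.0% by edgeR), with 182 genes for MLLT10, 222 for MLLT1 and 983 for MLLT6 at an unadjusted p under 0.05.

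**Figure D2:**
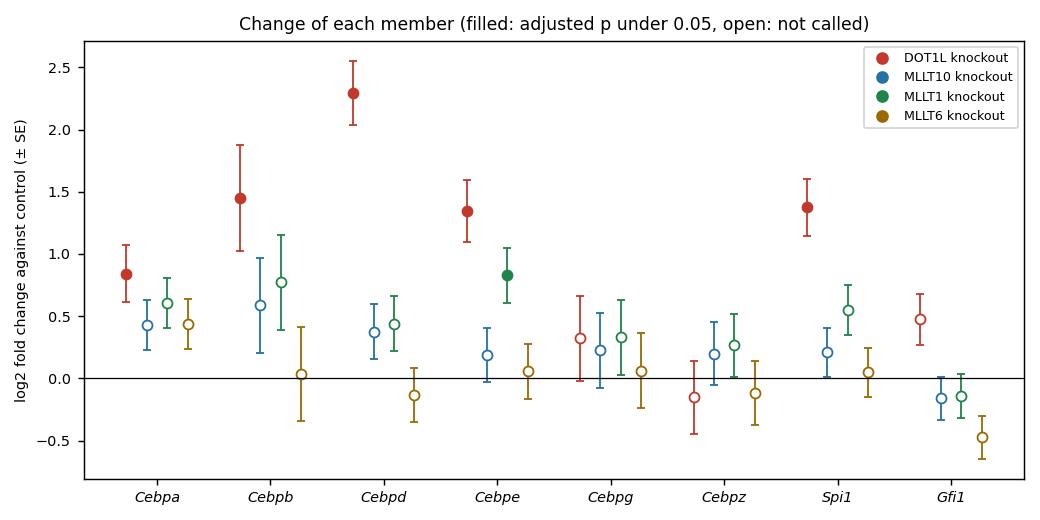
Log2 fold change ± SE of each gene against the control in the 4 knockouts (both guides averaged for MLLT10, MLLT1 and MLLT6). Filled points, at an edgeR adjusted p under 0.05, are 5 genes in the DOT1L knockout and Cebpe in the MLLT1 knockout.

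The knockouts were also tested against each other, where the control drops out. Against the DOT1L knockout, Cebpd, Spi1 and Gfi1 were lower in each of the other 3 knockouts. In the MLLT10 knockout 4 members were lower (12.6% of all genes were), in the MLLT1 knockout 3 (11.1%) and in the MLLT6 knockout 5 (15.3%). For Cebpd the log2 difference from the DOT1L knockout was -1.92 ± 0.21 in MLLT10, -1.85 ± 0.21 in MLLT1 and -2.43 ± 0.21 in MLLT6 (edgeR adjusted p = 1.69e-07, 3.16e-07 and 3.16e-09). For Spi1 it was -1.17 ± 0.19, -0.82 ± 0.19 and -1.33 ± 0.19 (edgeR adjusted p = 5.39e-05, 0.00256 and 8.16e-06). Gfi1, which was not called in the DOT1L knockout against the control, was at -0.64 ± 0.17, -0.61 ± 0.17 and -0.95 ± 0.17 (edgeR adjusted p = 0.00825, 0.012 and 0.000154).

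Cebpe was lower than in the DOT1L knockout in MLLT10 (-1.15 ± 0.20, edgeR adjusted p = 0.000149) and MLLT6 (-1.29 ± 0.20, 3.26e-05). Its difference of -0.51 ± 0.20 in MLLT1 was not called (edgeR adjusted p = 0.0854). Without both libraries that stood apart, that MLLT1 value was -0.65 (edgeR adjusted p = 0.0189). Cebpb was lower in MLLT6 (-1.42 ± 0.35, edgeR adjusted p = 0.00315). It was not called in MLLT10 (-0.86 ± 0.35, edgeR adjusted p = 0.0761) or MLLT1 (-0.68 ± 0.35, 0.201). With no filter on low counts both were called (-0.84, edgeR adjusted p = 7.59e-05, and -0.66, 0.00459), and the MLLT10 value also without both libraries that stood apart (-0.87, 0.0486). For Cebpa, the DOT1L value did not stand out: the differences were -0.41 ± 0.19, -0.24 ± 0.19 and -0.41 ± 0.19 for MLLT10, MLLT1 and MLLT6, with edgeR adjusted p of 0.129, 0.475 and 0.117.

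Between the other knockouts, Cebpe was the 1 gene called. It was higher in MLLT1 than in MLLT6 by 0.77 ± 0.17 (edgeR adjusted p = 0.00996, with 1.78% of all genes called higher) and lower in MLLT10 than in MLLT1 (-0.64 ± 0.17, edgeR adjusted p = 0.044, with 1.18% called lower). The latter was -0.50 without both libraries that stood apart (edgeR adjusted p = 0.121). With the replicate block, Spi1 was also called lower in MLLT10 than in MLLT1 (-0.36, edgeR adjusted p = 0.0329). MLLT10 and MLLT6 had no called difference among the 8 genes (0.766% of all genes were called in either direction), and Cebpd had the lowest unadjusted p there, with 0.51 ± 0.18 in MLLT10 over MLLT6 (adjusted p = 0.256). DESeq2 called none of the 8 in that comparison, while edgeR with no filter on low counts called Cebpb (0.56, edgeR adjusted p = 0.0311) and Cebpd (0.51, 0.0239). In MLLT1 against MLLT6, DESeq2 called Cebpd (0.57, DESeq2 adjusted p = 0.0347) and Spi1 (0.51, 0.0438) beside Cebpe. With no filter, edgeR called Cebpb (0.75, edgeR adjusted p = 0.00017), Cebpd (0.58, 0.0022) and Spi1 (0.51, 0.0112) there. With the replicate block it called Cebpb (0.69, edgeR adjusted p = 0.0413), Cebpd (0.56, 0.0436) and Spi1 (0.51, 0.00173). Without both libraries that stood apart, edgeR called Cebpd there as well (0.70, edgeR adjusted p = 0.0155).

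To compare levels between genes, CPM were divided by the length of each gene's exons in kilobases. Some exon bases are shared with genes on the opposite strand, among them 562 of 3746 in Cebpd and 312 of 1504 in Cebpb. How reads there were counted is not known, and its bearing on levels and shares per kb was not tested. In the control, mean levels per kb were 61.9 ± 12.2 CPM (SD, n = 3) for Gfi1, 47.2 ± 11.6 for Spi1, 43.2 ± 10.8 for Cebpe, 33.3 ± 9.78 for Cebpa, 31.2 ± 6.65 for Cebpd, 25.4 ± 15.2 for Cebpb, 14.8 ± 3.70 for Cebpg and 2.85 ± 0.20 for Cebpz. From Gfi1 down to Cebpg, the libraries of each gene overlapped those of the next in this order, and Cebpz lay below all others. In the DOT1L knockout the order per kb began with Cebpd at 153 ± 28.3 CPM (n = 3), ahead of Spi1 at 122 ± 9.55, Cebpe at 109 ± 9.46, Gfi1 at 86.1 ± 2.91, Cebpb at 68.7 ± 31.2 and Cebpa at 59.6 ± 7.95. The libraries of neighbours overlapped in this order too, except that Cebpe lay above Gfi1.

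The 5 bZIP genes together summed to 326, 431 and 470.3 CPM per kb in the DOT1L knockout and to 140.1 to 249 in the other 21 libraries. Cebpd made up 37.1%, 40.7% and 34.6% of that sum in DOT1L replicates 1, 2 and 3 and 15.5%, 25.5% and 22.6% in the control. The highest share among the 21 other libraries was the 25.5% of control replicate 2. Cebpa held 13.9% to 15.8% of the sum in the DOT1L knockout against 15.9% to 31.7% in the others, while its level was higher than in the control. Per kb, Cebpd was at 2.36 to 2.93 times Cebpa in the DOT1L libraries and at 0.44 to 1.42 times in the others. These are shares of mRNA within a library, and because all 5 enter the sum, a higher share of 1 lowers those of the rest.

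The ratio of Spi1 to Gfi1 per kb was 1.49, 1.43 and 1.34 in the DOT1L knockout and 1.12, 0.80 and 0.48 in the control. It did not set the DOT1L knockout apart from the other groups: MLLT1 guide 1 had ratios of 1.73, 1.53 and 1.12.

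**Figure D3:**
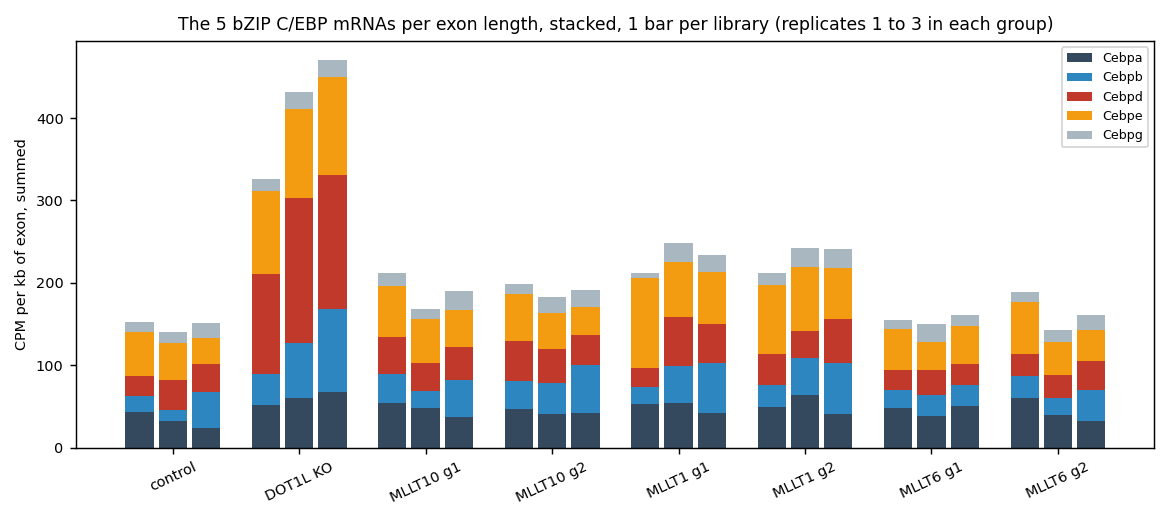
Stacked levels of the 5 bZIP C/EBP mRNAs (CPM per kb of exon, axis from 0), 1 bar per library in the order replicate 1, 2 and 3 in each group. The DOT1L knockout bars reach 326 to 470.3, and the red Cebpd segment is 34.6% to 40.7% of each.

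Several of the genes varied with the replicate number in the same way in all or nearly all groups. The share of all tested genes that do so was not worked out, so the pattern is not shown to be particular to these genes. Spi1 was highest in replicate 1 in 8 of 8 groups and lowest in replicate 3 in 7. Cebpb was highest in replicate 3 in all 8 groups, Cebpe was highest in replicate 1 in 7, and Cebpg was lowest in replicate 1 in 7. Gfi1 had no such pattern: it was highest in replicate 1 in 3 groups, in replicate 2 in 2 and in replicate 3 in 3. In the control, Spi1 was thus at 159.9 CPM in replicate 1 and 98.0 CPM in replicate 3, and Cebpb at 29.3 and 64.2 CPM. What the numbers stand for is not given in the labels.

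**Figure D4:**
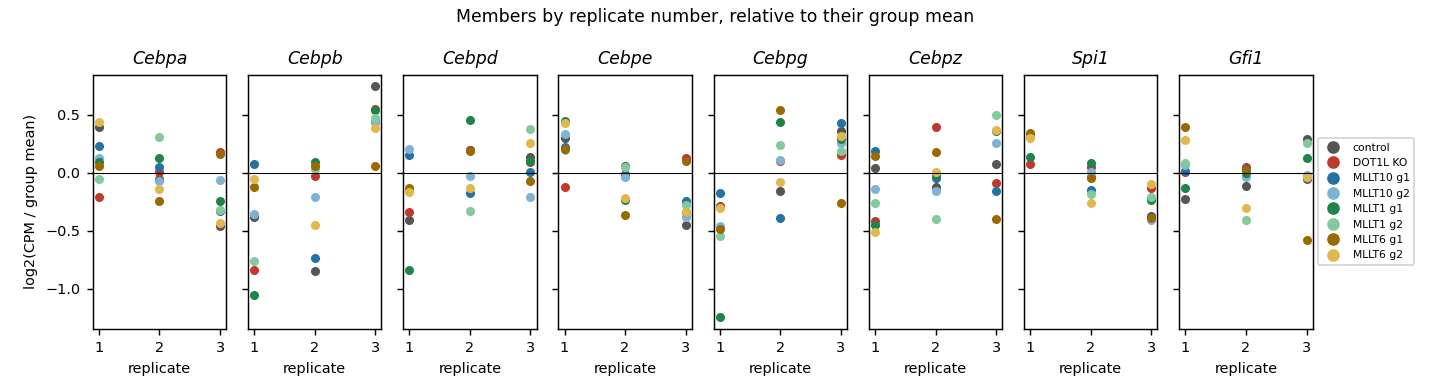
Each gene in each library as the log2 ratio to the mean CPM of its group, by replicate number, coloured by group. Spi1 points of replicate 1 and Cebpb points of replicate 3 are the highest of their group in all 8 groups. The share of all tested genes with such a pattern was not worked out.

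Genes known to work with these factors, or to be controlled by them, were taken in 6 lists of 65 distinct genes. All 8 secondary granule genes known to depend on C/EBPε rose in the DOT1L knockout, with a median log2 fold change of 6.77 against 0.01 for all genes. Camp, a precursor of an antimicrobial peptide, went from 62.7 to 16196 CPM on average (8.02 ± 0.34, edgeR adjusted p = 2.38e-14), Ngp from 91.5 to 5495 CPM (5.91 ± 0.31, 1.08e-12), and Ltf, which encodes lactoferrin, from 0.717 to 1732 CPM (11.15 ± 0.62, 3.99e-12, with 6 counts in the control). Of 17 tested genes known as targets of C/EBPα or PU.1, 13 rose and 1 fell, with a median of 1.13. Cybb, a subunit of the phagocyte oxidase, rose from 4 counts over the control libraries to 7833 (10.36 ± 0.44, edgeR adjusted p = 3.2e-14), Mpo, the myeloperoxidase gene, rose by 2.94 ± 0.19 (7.46e-11) and Itgam, an integrin, by 2.996 ± 0.33 (3.2e-07). The gene that fell was Ctsg, cathepsin G, at -1.11 ± 0.17 (edgeR adjusted p = 4.4e-05). Neutrophil markers, some of which are in these lists, moved with the lists as given above, and their part was not tested.

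Partners of the factors were described next. Of 10 tested C/EBP partners and inhibitors, 1 rose and 2 fell in the DOT1L knockout, with a median of -0.13. These counts are near the share of all genes called (11.2% higher and 10.7% lower). Trib3, a pseudokinase related to the C/EBPα-degrading Trib1 and Trib2, fell by 1.33 ± 0.22 (edgeR adjusted p = 7.69e-05). Id2, an inhibitor of helix-loop-helix factors, rose by 1.51 ± 0.43 (0.0137), and Ddit3, which encodes the C/EBP-like stress factor CHOP, fell by 1.19 ± 0.41 (0.0375). Of 8 tested relatives, partners and antagonists of PU.1, 4 rose and 2 fell. Gata2, an antagonist of PU.1 that is also in the mast cell and basophil list, fell by 2.33 ± 0.28 (edgeR adjusted p = 9.12e-07) and Irf8, a partner that favours monocytes, by 1.75 ± 0.26 (2.78e-05), while the ETS gene Ets1 rose by 0.79 ± 0.19 (0.00406). Of 7 tested genes among the Gfi1 paralog and corepressors, Rcor1, a subunit of the complex with the demethylase Kdm1a, rose by 0.49 ± 0.13 (edgeR adjusted p = 0.0103) and none fell, again a share near that of all genes. The calls of some of these genes rest on single libraries or settings. Id2 lost its call without control replicate 1 (edgeR adjusted p = 0.0718), Rcor1 without control replicate 2 (0.0562) or with no filter (0.104), and Ddit3 without control replicate 2 (0.119) or 3 (0.129) or DOT1L replicate 2 (0.169) or 3 (0.0693), or with the compared groups alone (0.057). The 4 relatives, partners and antagonists of PU.1 that rose became 3 without control replicate 2 or 3.

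Genes known to be repressed by Gfi1 went both ways in the DOT1L knockout: of 7 tested, 2 rose and 3 fell, with a median of -1.24. Over all genes, 11.2% were called higher and 10.7% lower. The median is the value of Nab2, which was not called (-1.24 ± 0.76, edgeR adjusted p = 0.273). Nab2 had 20 counts in the control and 11 in the DOT1L knockout. Meis1 fell by 2.83 ± 0.22 (edgeR adjusted p = 1.2e-09), Hoxa9 by 2.27 ± 0.19 (3.21e-09) and Irf8 as above, while Ets1 and Id2 rose. Hoxa9 and Meis1 are also known targets of MLL fusions.

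In the MLLT1 knockout, 6 of the 8 granule genes rose, with a median of 2.27: Camp by 2.38 ± 0.25 (edgeR adjusted p = 2.32e-06), Ngp by 2.16 ± 0.24 (6.92e-06) and Ltf by 4.21 ± 0.66 (0.000696) among them. Of the 17 C/EBPα or PU.1 targets, Cybb rose by 2.78 ± 0.60 (edgeR adjusted p = 0.011), and Ctsg fell by 0.83 ± 0.14 (0.00187) and Prtn3, proteinase 3, by 0.58 ± 0.15 (0.0329). Prtn3 rose in the DOT1L knockout, by 1.13 ± 0.17 (edgeR adjusted p = 3.67e-05). In the MLLT10 knockout, Camp (1.24 ± 0.24, edgeR adjusted p = 0.011), Ltf (3.16 ± 0.72, 0.0455) and Mpo (1.32 ± 0.17, 0.000173) rose. Without control replicate 2 or 3, Camp and Ltf in MLLT10 and Cybb and Prtn3 in MLLT1 were no longer called. Cybb, with 4 counts in the control, ran from 2.26 to 4.14 in MLLT1 with 1 library left out, the highest without control replicate 1, and lost its call with the compared groups alone (edgeR adjusted p = 0.101). Ltf in MLLT10 also lost its call without control replicate 1 or any of MLLT10 guide 1 replicates 1 and 2 and guide 2 replicates 1 and 3, and Prtn3 in MLLT1 without replicate 1 or 2 of either guide. In both knockouts the other 4 lists held no called gene, and in the MLLT6 knockout none of the 6 lists did. For MLLT10 and MLLT1 this depended on the setting. With DESeq2 or with the replicate block, 1 gene known to be repressed by Gfi1 was called lower in MLLT10. With no filter on low counts, 1 such gene and 1 C/EBP partner or inhibitor were called lower in MLLT1. The neutrophil markers summed to 726 to 1054 CPM in the MLLT10 libraries (4 of 6 called higher), 1778 to 2318 CPM in the MLLT1 libraries (6 of 6 called higher) and 270.0 to 692 CPM in the MLLT6 libraries (0 of 6).

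**Figure D5:**
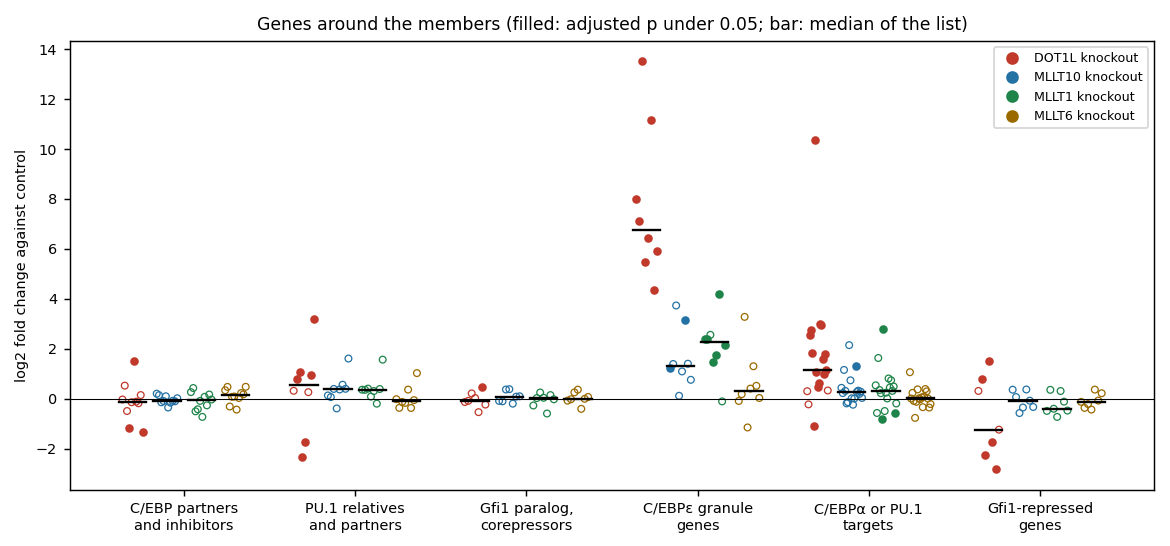
Log2 fold change against the control of every tested gene of the 6 lists (points) with the median (bar), by knockout; filled points have an edgeR adjusted p under 0.05. The C/EBPε granule genes have medians of 6.77 in the DOT1L knockout and 2.27 in the MLLT1 knockout, and 0.29 in the MLLT6 knockout, where no point is filled.

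The genes whose level followed each factor most closely were looked up among tested genes whose mean reached 5 CPM, by Pearson's r of log2 CPM over the 24 libraries, which share their depth, replicate number and group with both genes. Cebpd was followed by Prkcd (r = 0.96), Actn1 (0.94) and Agps (0.937). Without the 3 DOT1L libraries, r over the other 21 was 0.824, 0.677 and 0.758, so these likenesses rest in part on the DOT1L knockout. Spi1 was followed by the cytoskeletal genes Myh9 (r = 0.96, and 0.917 without DOT1L) and Flna (0.941 and 0.866), and by Znfx1 (0.937 and 0.862). Cebpe was followed by Zyx (0.918 and 0.905), Spn and Arhgdib, Cebpb by Plagl2 (0.921 and 0.886), Vps35 and Hacd2, and Gfi1 by Flcn (0.90 and 0.865), Efhd2 and Gnal. For Cebpg, which was not called in any comparison, r was 0.946 with Gtpbp2 and 0.922 with Tsc22d4, and 0.944 and 0.963 without the DOT1L libraries. Cebpa was followed by Cd63-ps (0.879), Trir and Arhgef1, and Cebpz, the gene with the fewest counts, by Ogfod1 (0.79), Trappc13 and Bcor.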

How the data were processed

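RNA of 24 mouse leukaemia libraries was sequenced. The authors deposited a table of raw counts, reads per gene, for 43629 Ensembl identifiers. Per the submitters' processing notes, bcl2fastq, HISAT2, HTSeq and DESeq2 were used with mm10. The versions, annotation and strand setting of these tools were not given in the sources used here. How reads in exon bases shared by genes on opposite strands were counted is therefore not known. Columns were matched to samples by name, and groups and replicate numbers came from the sample titles. Symbols and positions came from GENCODE M21 (42548 identifiers matched, 1081 did not).

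The deposited counts were tested with edgeR 4.0.16 in R 4.3.3: TMM scaling, edgeR's filter on low counts by group (10578 genes stayed) and 1 quasi-likelihood fit of all 8 groups, which share 1 estimate of the spread. There were 19 comparisons: 4 knockouts with the control (the mean of both guides where there are 2), 6 single guides with the control, 3 between guides and 6 between knockouts. P-values were adjusted by Benjamini-Hochberg over all tested genes, and a gene was called under 0.05. The SE was worked back from the log2 fold change and edgeR's F statistic, and is approximate. Replicates of a group differed by a chi-square per gene of 4.76 to 34.31 over genes that reached 20 counts in a pair, which is more than sampling noise, so all were kept as separate. The fit was tested on simulated data.

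Named genes were the 8 members, up to 3 called genes per list and knockout with the smallest adjusted p (Ctsg and Prtn3 in the DOT1L knockout were named beside it after their values were seen), the 3 genes most like each member, and genes that overlap a member. The members, the 6 lists, the marker lists and the tests were chosen with earlier results of these data known. In a pair of groups, replicate numbers were taken as pairing the libraries where the correlation of deviations from the group means exceeded 0.1 for all 3 numbers. This held for 8 of 28 pairs of groups, among them the control with MLLT10 guide 1 (0.31, 0.268 and 0.348) and guide 2 (0.151, 0.107 and 0.214). It did not hold for the control with the DOT1L knockout (0.266, 0.07 and 0.142), MLLT1 guide 1 or MLLT6 guide 1.

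The alternatives were no filter, size factors or the test of DESeq2 1.42.0, a block on the replicate number, the compared groups alone, both libraries that stood apart left out, and each library left out in turn. The block was fitted over all libraries, also in groups that the numbers did not pair. Promoter windows came from RefSeq, where 4 of the 8 genes had an entry; those of Gfi1 are not shown. Tables and figures were made with Python 3.11.15, pandas 2.3.3 and matplotlib 3.10.9.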

Additional observations from a re-analysis of the deposited data

How the results depend on the processing

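Of the 5 genes called in the DOT1L knockout, Cebpd, Cebpe and Spi1 kept their call in all 12 alternatives, with log2 fold changes of 2.11 to 2.42, 1.16 to 1.497 and 1.22 to 1.56. Cebpa and Cebpb lost it in 1 and 3 of 12, each time with a library left out (0.66 to 1.07 and 1.06 to 2.05), and the count of called members there was 4 to 6. In the MLLT1 knockout the count of 1 became 3 with no filter, 2 with the replicate block (Cebpe, and Spi1 at 0.57, edgeR adjusted p = 0.00819), 0 with the compared groups alone (Cebpe at 0.82, edgeR adjusted p = 0.132) and 0 with both libraries that stood apart left out, and ran from 0 to 2 with a library left out. The count over single guides, 0, became 4 with no filter, 1 with the DESeq2 test and 3 with the replicate block, all of them Cebpe, Spi1 or Cebpb with an MLLT1 guide. The count of 14 between knockouts became 22 with no filter and 20 with the replicate block. The cause of these shifts was not tested.

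The MLLT10 and MLLT6 knockouts had no called member in any alternative. With a library left out, 6 estimates that were not called changed sign in 14 alternatives: Gfi1 in MLLT10 (-0.27 to 0.0152) and MLLT1 (-0.25 to 0.0406), and in MLLT6 Cebpb (-0.27 to 0.64), Cebpe (-0.12 to 0.22), Cebpg (-0.12 to 0.29) and Spi1 (-0.10 to 0.24). The genes called over the table were 50 for MLLT10 (28 with the compared groups alone, 102 with DESeq2, 192 with no filter, and 15 without control replicate 2 or 3), 273 for MLLT1 (97, 463 with no filter, 457 with the replicate block, and 74 to 432 with a control library left out) and 0 for MLLT6 (80 with no filter). The replicate block changed no member's call in the DOT1L, MLLT10 or MLLT6 knockout against the control.

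Cebpz had the fewest counts, 23 to 114 per library, and the SE in the DOT1L knockout was widest for Cebpb (0.43) and Cebpg (0.34).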
